A study of Mus musculus with 55 samples.

Results

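The genes described here are albumin (Alb) and 8 transcription factors of hepatocyte identity: Hnf4a, Foxa1, Foxa2, Foxa3, Cebpa, Nr5a2, Onecut1 and Prox1. They were taken by gene symbol from the deposited count tables, in which they make up 9 of the 34490 symbols shared by both sequencing batches, and all 9 passed the filter on low counts in every comparison. RNA of whole mouse livers was sequenced to ask how deletion of Rnf43 and Znrf3 in hepatocytes changes the liver without damage and during its regeneration. The mice compared, R&Zdel and R&Zflox, all carried floxed alleles of both genes. In R&Zdel mice the floxed exons, which encode the RING domain, were removed in the adult, by an AAV8 virus with Cre under the hepatocyte promoter TBG or by tamoxifen in mice with the Alb1-CreERT2 transgene, whose Cre is driven by the albumin promoter. R&Zflox mice received AAV8-null virus or vehicle. The undamaged livers used here were collected at 1 month (1M; 4 R&Zdel and 4 R&Zflox mice), 3 months (3M; 2 and 5) and 7 months (7M; 5 and 5) after deletion. The labels list 2 more R&Zdel samples at 3M, for which no counts were at hand. After repeated CCl4, a toxin that kills pericentral hepatocytes, livers were taken at 4 days (2 and 2 mice), 50 days (2 and 1) and 170 days (2 and 2) of recovery (chronic damage, CD). After partial hepatectomy (PHx) they were taken at 7 days (3 and 3) and 21 days (3 and 3). By the labels, virus was the inducer of all mice at 1M, after PHx and at 3M in batch 2. Tamoxifen was the inducer of all mice at 7M and in batch 1, which holds all CD livers. The labels give tamoxifen for R&Zflox mice as well, although the study describes vehicle for such controls, and this was not resolved. The inducer therefore cannot be told apart from the time or the damage in several of these comparisons. The labels mark the CD controls as chronically damaged, while a sentence of the study's methods speaks of control littermates that received corn oil vehicle, and this was not resolved.

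Counts on genes ranged from 11721687 to 38692089 per library, with a median of 22982428 over 53 libraries, of which 48 could be assigned to a group. Whole-gene counts do not show which exons were read, so that the deletion itself is not checked by them. Rnf43 had 25.7 to 67.3 CPM (reads of a gene scaled to the library's total) in R&Zdel and 3.34 to 58.0 CPM in R&Zflox livers of batch 2, and 18.3 to 36.4 against 4.98 to 18.5 CPM in batch 1. Znrf3 had 40.7 to 163.6 against 8.93 to 34.6 CPM in batch 2 and 11.6 to 25.9 against 4.50 to 9.52 CPM in batch 1. The medians of both genes were thus higher in R&Zdel than in R&Zflox livers of either batch. Genes that mark hepatocytes were abundant in every library, and the 18 other secreted liver proteins examined below together made up 117000 to 197600 CPM.

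Hepatocytes make most of the proteins of blood plasma, and albumin is the most abundant of these. A set of transcription factors that bind each other's genes keeps hepatocytes differentiated: HNF4A, a nuclear receptor, the FOXA proteins, which open chromatin, CEBPA, a leucine zipper factor of adult metabolic genes, NR5A2, a nuclear receptor of bile acid and cholesterol metabolism, ONECUT1, and the homeobox factor PROX1. RNF43 and ZNRF3 are ubiquitin ligases that remove WNT receptors from the cell surface. WNT signals from the central vein set the zones of the liver lobule, in which albumin mRNA is more abundant around the portal vein.

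The upstream sequences of Alb and of the downstream start of Hnf4a are shown because the former is the best known target of these factors and the latter the start used in adult liver. Both are the 250 bases before the annotated start in RefSeq's GRCm38.p6 (mm10) annotation, in which all 9 genes were found, with 14 such windows. Alb (chr5:90460870-90476602, plus strand) starts after chr5:90460620-90460869 and Hnf4a (chr2:163506811-163572907, plus strand) has its downstream start after chr2:163546905-163547154. Capitals mark matches on either strand to TTNNGNAA (C/EBP), TGTTTNC (FOXA), CCAAT or CAAAGNCCA (HNF4).
Alb: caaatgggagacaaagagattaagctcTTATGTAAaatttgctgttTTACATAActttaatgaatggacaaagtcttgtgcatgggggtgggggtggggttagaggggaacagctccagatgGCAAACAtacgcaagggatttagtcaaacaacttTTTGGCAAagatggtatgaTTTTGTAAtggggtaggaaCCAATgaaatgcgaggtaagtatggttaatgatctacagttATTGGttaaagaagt
Hnf4a: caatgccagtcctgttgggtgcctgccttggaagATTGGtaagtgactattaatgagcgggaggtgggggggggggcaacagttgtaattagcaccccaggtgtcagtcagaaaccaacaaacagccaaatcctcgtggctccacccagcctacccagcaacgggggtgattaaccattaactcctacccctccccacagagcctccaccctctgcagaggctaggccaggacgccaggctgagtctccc

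The Alb window held 7 matches, none of which overlap: 4 to the C/EBP motif, 2 to CCAAT and 1 to the FOXA motif, the last at positions −128 to −122 from the start. The Hnf4a window held 1, to CCAAT. Such short motifs are common. Of 32851 windows of this length over all genes, 36.9% held the C/EBP motif, 33.9% CCAAT, 17.8% the FOXA motif and 1.70% the HNF4 motif. Of the 14 windows of the 9 genes, 6, 7, 4 and 0 held them. A match describes the letters only, and binding was not measured here.

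Alb stood far above the factors. Per length of exons (RPKM, the same scaling per kilobase of exons), its median level was 17580 over the 18 assigned libraries of batch 1 and 28600 over the 30 of batch 2. Cebpa followed with medians of 69.2 and 84.4 RPKM, Hnf4a with 33.0 and 51.3, Foxa3 with 21.98 and 39.96 and Foxa2 with 9.999 and 12.7. Below them lay Nr5a2 with 4.80 and 6.71 RPKM, Prox1 with 2.98 and 6.56, Foxa1 with 2.002 and 1.849 and Onecut1 with 1.10 and 4.41. The order of the 7 most abundant genes was the same in both batches. The range of Alb met that of no factor, while those of Cebpa (44.9 to 135.3 RPKM) and Hnf4a (29.7 to 85.2 RPKM) overlapped in batch 2, as did those of each later pair of neighbours. Foxa1 and Onecut1 were counted on few reads, with 3 to 567 and 0 to 514 reads in batch 2, and Alb on 302902 to 2419323.

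Alb was lower in R&Zdel than in R&Zflox livers without damage. In undamaged livers at 1M, Alb had 83390, 81120, 71860 and 60740 CPM in the 4 R&Zflox mice and 23440, 37750, 28210 and 33990 CPM in the 4 R&Zdel mice. The genotypes did not overlap, and the log2 fold change of R&Zdel over R&Zflox was −1.45 ± 0.20 (SE; edgeR quasi-likelihood test, adjusted p = 0.000269), a level of 0.366 times that of the controls. Called genes had a Benjamini-Hochberg adjusted p under 0.1, as did 0.498% of all genes tested at 1M. At 7M the R&Zflox libraries had 55370 and 53570 CPM in batch 1 and 62380, 63320 and 73580 CPM in batch 2. The R&Zdel libraries had 22280 and 15530 CPM in batch 1 and 19280, 23630 and 17380 CPM in batch 2. The highest R&Zdel value again lay below the lowest R&Zflox value, and Alb fell by 1.58 on the log2 scale (SE 0.18, edgeR adjusted p = 3.90e-05; 0.576% of genes called). Within batch 2 the log2 fold change was −1.65 (edgeR adjusted p = 0.00175), and within batch 1, with 2 mice of each genotype, −1.61 (adjusted p = 0.382). R&Zflox replicate 5 in batch 1 was a female, and the other mice at 7M were males. At 3M Alb had 50820 and 62290 CPM in the R&Zflox libraries of batch 1 and 68060, 65010 and 65970 CPM in those of batch 2, against 21140 CPM in the R&Zdel library of batch 1 and 36870 CPM in that of batch 2. The log2 fold change at 3M was −1.14 ± 0.25 (edgeR adjusted p = 0.0686; 0.226% called). It rested on 1 R&Zdel mouse per batch, a female in batch 1 against males only in R&Zflox. It was not called within either batch (−1.28, adjusted p = 0.944, and −0.85, adjusted p = 0.485, edgeR), and was kept in 15 of the 25 fits that left out 1 library (adjusted p = 0.203 without R&Zdel replicate 1 and 0.44 without R&Zdel replicate 4).

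After PHx Alb was called lower in R&Zdel livers on both days. At 7 days Alb had 64840, 75160 and 91340 CPM in R&Zflox and 43150, 21580 and 19920 CPM in R&Zdel livers, a log2 fold change of −1.53 ± 0.25 (edgeR adjusted p = 0.00616; 0.352% called). At 21 days it had 57170, 69980 and 60950 CPM in R&Zflox and 30850, 35490 and 30630 CPM in R&Zdel livers, a log2 fold change of −1.09 ± 0.25 (edgeR adjusted p = 0.0849; 0.423% called). The R&Zdel livers lay below all R&Zflox livers on both days, although 1 R&Zdel liver at 7 days (43150 CPM) stood far above the other 2. The call at 21 days held in 7 of 20 fits that left out 1 library, with an edgeR adjusted p of 0.342 without R&Zdel replicate 2 at that time and 0.255 without R&Zflox replicate 2. R&Zdel replicate 3 at 21 days was a female and the other livers of that day were males. With male mice alone Alb was not called at 21 days.

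After CCl4, the genotypes overlapped in Alb by CPM at 4 days and stood apart at 50 and 170 days. At 4 days it had 34520 and 40420 CPM in R&Zflox and 37950 and 31930 CPM in R&Zdel livers, so that the genotypes overlapped (log2 fold change −0.58 ± 0.41, edgeR adjusted p = 0.339, 95% interval −1.49 to 0.33). With composition scaling, the scale of the test, they did not overlap, with 38330 and 43600 CPM in R&Zflox and 31260 and 23550 CPM in R&Zdel livers. At 50 days the lone R&Zflox library had 58890 CPM and the R&Zdel libraries 25050 and 19190 CPM, a log2 fold change of −1.62 ± 0.48 (edgeR adjusted p = 0.0988; 7.6% called). At 170 days R&Zflox livers had 45760 and 72450 CPM and R&Zdel livers 22400 and 17820 CPM. The labels put these 2 R&Zflox libraries at 170 days, while the sample list of the study enters them at both 50 and 170 days, which was not resolved and touches both comparisons. The log2 fold change of −1.76 ± 0.42 at 170 days was the largest of the 8 but was not called (edgeR adjusted p = 0.164; 0.643% called), and at 4 days 27.6% of all genes were called. The 50-day call held in 2 of the 10 fits that left out 1 library, with an edgeR adjusted p of 0.173 without R&Zdel replicate 2. Over the 8 comparisons of genotypes Alb was called lower in 6, of which CD 50 days rests on 1 R&Zflox library whose spread was taken from the other groups, and had a negative log2 fold change in 8. By CPM in each batch and condition, R&Zdel lay below R&Zflox in 9 of 10 cases and overlapped it at 4 days after CCl4. Over all genes that exceeded 1 CPM in 3 or more libraries, 11.2% of such cases had R&Zdel lower. In 3 of the 10 cases 1 genotype was a single library, and in the other 7 Alb was lower in 6, beside 7.66% over all genes. Since whole livers were read, fewer hepatocytes and less Alb mRNA in each hepatocyte cannot be told apart. Alb is also among the hepatocyte markers that the study picked from these samples, so that its direction is not independent of that choice.

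**Figure D1:**
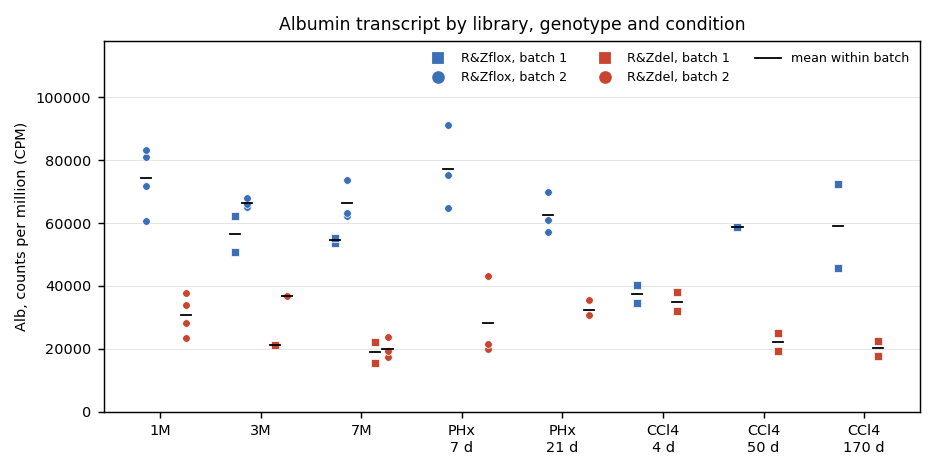
Alb CPM (vertical axis, linear from 0) in each library (points) by condition (horizontal axis), R&Zflox beside R&Zdel, with the batch marked by the symbol and bars at the mean within a batch. R&Zdel livers lie between 15530 and 43150 CPM and R&Zflox livers between 34520 and 91340 CPM, and the genotypes meet only at 4 days after CCl4.

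Compared with undamaged livers of their own genotype, neither group showed a called change of Alb. In R&Zflox mice of batch 1 the log2 fold change at 4 days after CCl4 against all undamaged livers was −0.67 ± 0.31 (edgeR adjusted p = 0.254; 8.21% of genes called), and in R&Zdel mice it was 0.20 ± 0.33 (edgeR adjusted p = 0.654; 52.3% called). The difference of these, the interaction of genotype and damage, was 0.87 ± 0.43 for Alb (edgeR adjusted p = 0.177; 25.7% called). At 50 days the interaction was −0.16 ± 0.49 and at 170 days −0.26 ± 0.43 (edgeR adjusted p = 0.867 and 0.923; 3.73% and 0% called). Alb in R&Zflox livers differed from undamaged by 0.06 ± 0.39 at 50 days and 0.20 ± 0.30 at 170 days on the log2 scale, where 0.00793% of genes were called at each time. In R&Zdel livers it differed by −0.10 ± 0.33 at 50 days (36.1% called) and −0.05 ± 0.33 at 170 days (0% called). After PHx, against 1M livers of batch 2, Alb differed by 0.03 ± 0.25 at 7 days and −0.20 ± 0.25 at 21 days in R&Zflox mice, with 0.0235% and 0% of genes called. In R&Zdel mice it differed by −0.07 ± 0.25 and 0.15 ± 0.23, with 0.0157% and 0% called. The interactions with PHx were −0.09 ± 0.32 at 7 days and 0.35 ± 0.33 at 21 days, with 0% of genes called on each day. In the 6 comparisons given as 0%, edgeR called no gene, 607 to 1107 genes had an unadjusted p under 0.05, and DESeq2 called 44 to 352. These comparisons share their control libraries with the comparisons of genotypes.

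The early CD comparison depended on how libraries were scaled. The scaling by TMM, which corrects for the composition of each library, used factors of 1.27 to 1.42 for R&Zdel and 0.930 to 0.955 for R&Zflox livers at 4 days after CCl4. Scaled by library size alone, the median log2 fold change of all genes at 4 days moved by 0.51, and Alb stood at −0.08 (edgeR adjusted p = 0.842). On this scaling Alb in R&Zdel livers was called higher at 4 days than without damage (log2 fold change 0.86, edgeR adjusted p = 0.00839), and its interaction was called as well (1.44, adjusted p = 0.0133). The medians of all genes moved by 0.67 and 0.58 in these comparisons. Of all genes, 62.9% and 36.5% were called on this scaling, and 88.6% and 89.6% of the called genes were higher. The overlap of the genotypes in CPM at 4 days and the negative TMM value of Alb there are thus on different scales.

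Other secreted proteins of the liver had smaller differences than Alb in most comparisons, and this contrast was not tested as such. A list of 18 such products, among them transthyretin (Ttr), apolipoproteins, transferrin (Trf) and fibrinogen chains, was tested in the same fits. At 1M, 3M, 7M, CD 50 days and both times after PHx, 0 of the 18 had a lower log2 fold change than Alb. The nearest were Hpx, which encodes the heme carrier hemopexin, at 1M (−0.85, edgeR adjusted p = 0.0752), Apoc3 at 3M (−0.86), Fgg at 7M (−0.83), Gc at CD 50 days (−0.88), Apoc3 at 7 days (−0.60) and Plg at 21 days after PHx (−0.70). At 170 days after CCl4 only Hpx lay below Alb (−1.84). At 4 days after CCl4, in contrast, 13 of the 18 lay below it. The median log2 fold change of the list was −0.37 at 1M, −0.13 after 3 months and −0.06 at 7M, where the medians of all genes were 0.01, −0.09 and −0.02.

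The ratio of Alb reads to those of the 18 products does not depend on the scaling of libraries. It was 0.438 to 0.579 in R&Zflox and 0.190 to 0.320 in R&Zdel livers at 1M. At 7M it was 0.356 to 0.371 against 0.102 to 0.171 in batch 1 and 0.456 to 0.545 against 0.0880 to 0.190 in batch 2. At 7 days after PHx it was 0.418 to 0.576 against 0.138 to 0.316, and at 21 days 0.407 to 0.486 against 0.214 to 0.264. In CD livers at 170 days it was 0.279 to 0.453 against 0.117 to 0.153. At 4 days after CCl4 the order turned, with 0.194 to 0.208 in R&Zflox and 0.223 to 0.244 in R&Zdel livers, 2 of each. Both R&Zflox values at 4 days were lower than those of every other R&Zflox library. By RPKM, Alb was the most abundant of all genes in 16 of 25 R&Zflox libraries, and in the others took a rank of at most 4. In R&Zdel libraries it was first in 0 of 23, with ranks from 2 to 11 and a median of 6.

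**Figure D2:**
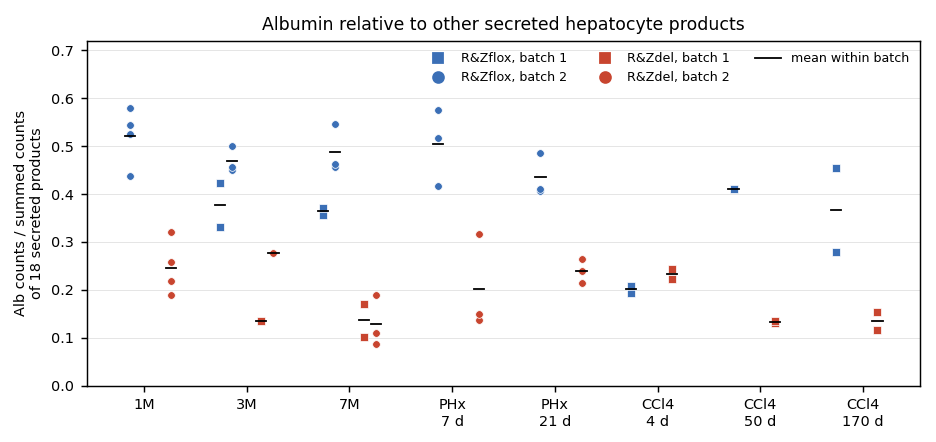
Ratio of Alb counts to the summed counts of 18 other secreted liver products (vertical axis, no unit) in each library (points) by condition, R&Zflox beside R&Zdel, with bars at the mean within a batch. R&Zflox livers lie between 0.194 and 0.579 and R&Zdel livers between 0.0880 and 0.320, with R&Zdel above R&Zflox only at 4 days after CCl4.

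Without damage and after PHx, 0 of the 8 factors was called at 1M, 3M and 7M and at 7 and 21 days after PHx by edgeR, where 0.226% to 0.576% of all genes were, so that the count alone says nothing about the factors. Over all 8 comparisons of genotypes, 2 of 64 factor tests were called, both at 4 days after CCl4, where 27.6% of all genes were, and 6 had an unadjusted p under 0.05. By CPM the genotypes overlapped in 54 of 80 cases of factor, batch and condition, with R&Zdel higher in 11 and lower in 15. The 26 that did not overlap are 32.5% of the cases, beside 37.2% over all genes that exceeded 1 CPM in 3 or more libraries, and 14 of 56 (25%) beside 27.7% where each genotype had 2 or more libraries. A test that misses the threshold does not show equal levels, and the intervals below give the size that these libraries leave room for.

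Hnf4a had the narrowest SE of the 8 factors in 7 of the 8 comparisons of genotypes, and Cebpa at 7M. At 1M it had 262.5, 287.9, 284.1 and 225.2 CPM in R&Zflox and 278.6, 302.0, 244.5 and 215.0 CPM in R&Zdel livers. The values were interleaved, with a log2 fold change of −0.22 ± 0.21 (95% interval −0.65 to 0.22, edgeR adjusted p = 0.971). At 7M the ranges were 147.0 to 257.1 CPM in R&Zflox and 197.9 to 364.4 CPM in R&Zdel livers of batch 2, and 152.1 to 162.4 against 145.1 to 147.8 CPM in batch 1 (0.23 ± 0.19, interval −0.17 to 0.63). At 3M the log2 fold change was −0.15 ± 0.27. The lower bounds of these 3 intervals, −0.65, −0.70 and −0.17, lie above the log2 fold changes of Alb at the same times, −1.45, −1.14 and −1.58. Those values of Alb have an error of their own, and the difference between the genes was not tested. At 7 days after PHx, Hnf4a had 228.0 to 248.5 CPM in R&Zflox and 170.8 to 195.6 CPM in R&Zdel livers. These ranges did not overlap, as for 10.9% of all genes on that day, but the difference (−0.46 ± 0.20) was not called (edgeR adjusted p = 0.817). At 21 days they overlapped again (139.9 to 260.7 against 195.3 to 291.3 CPM). At CD 170 days Hnf4a stood at −0.48 ± 0.22 (edgeR adjusted p = 0.57).

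Cebpa, likewise well counted, had 191.7 to 221.8 CPM in R&Zflox and 147.1 to 266.6 CPM in R&Zdel livers at 1M (log2 fold change −0.28 ± 0.21, interval −0.72 to 0.16). At 7M it had 227.9 to 282.9 against 223.0 to 356.7 CPM in batch 2 (0.29 ± 0.19 over both batches). The ranges overlapped both times, and after PHx as well, where the log2 fold changes were −0.31 ± 0.26 at 7 days and −0.27 ± 0.27 at 21 days. In both genotypes Cebpa was read at a higher level 21 days after PHx than at 1M, by 0.54 ± 0.27 in R&Zflox and 0.52 ± 0.26 in R&Zdel mice on the log2 scale, neither of which was called (edgeR adjusted p = 0.73 and 0.958).

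Of the FOXA factors, Foxa3 overlapped between genotypes in 10 of 10 cases of batch and condition, with log2 fold changes between −0.79 ± 0.39 (7 days after PHx) and 0.20 ± 0.29 (7M). Its 3 R&Zflox livers at 7 days after PHx ran from 72.4 to 236.2 CPM. Foxa2 had 18.1 to 44.0 CPM in R&Zflox and 9.10 to 32.9 CPM in R&Zdel livers at 1M (−0.37 ± 0.44). At 7M its difference was −0.66 ± 0.35 in batch 1 and 0.98 ± 0.54 in batch 2, neither called by edgeR. Foxa1, with 4.46 to 11.7 against 1.43 to 17.7 CPM at 1M (0.03 ± 0.83, interval −1.68 to 1.74), had an interval that spans a difference as large as that of Alb. So had Onecut1, the least abundant factor of batch 1, with 4.31 to 20.02 against 3.97 to 12.4 CPM at 1M (−1.01 ± 1.115, interval −3.31 to 1.29).

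Nr5a2 at 21 days gave the largest log2 fold change of the 8 factors over the 2 comparisons of genotypes after PHx. At 21 days it had 20.6, 19.7 and 18.3 CPM in R&Zflox and 36.1, 44.7 and 91.2 CPM in R&Zdel livers. Every R&Zdel liver lay above every R&Zflox liver, and the log2 fold change was 1.54 ± 0.42 (edgeR adjusted p = 0.201). By CPM the genotypes did not overlap for 10.6% of all genes on that day. DESeq2's Wald test called Nr5a2 (adjusted p = 0.0276), as did edgeR's likelihood ratio test (adjusted p = 0.0892). In this comparison DESeq2 also called more of all genes than the edgeR quasi-likelihood test did. Over the 30 settings tried, Nr5a2 was called in 3, with log2 fold changes between 0.98 and 1.76. Its R&Zflox livers at 21 days also lay low against 1M livers of that genotype, which had 18.1 to 45.5 CPM (−1.01 ± 0.42, edgeR adjusted p = 0.679), and its interaction with PHx was 1.23 ± 0.54 (edgeR adjusted p = 0.84). At 1M and 7M the genotypes overlapped for Nr5a2 (0.26 ± 0.42 and 0.24 ± 0.38).

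Prox1 was lower in R&Zdel at 3M in batch 2 (47.4 CPM in the R&Zdel library against 65.1 to 127.8 CPM) and slightly higher in batch 1 (31.1 against 26.5 to 27.8 CPM). Its log2 fold change at 3M was −0.91 ± 0.41 (edgeR adjusted p = 0.746). At 7M it had 16.01 and 19.01 CPM in R&Zdel against 24.6 and 30.4 CPM in R&Zflox livers of batch 1, with overlapping ranges in batch 2 (−0.38 ± 0.29). At CD 170 days the ranges were 15.9 to 19.8 against 23.04 to 25.12 CPM (−0.63 ± 0.32, edgeR adjusted p = 0.616). Reads on Prox1 and its antisense gene Prox1os, whose exons overlap by 133 bases, cannot be told apart there, since the counting ignored strand. Foxa1 shares 63 exonic bases with Ttc6 and Onecut1 75 with Gm33562. The antisense gene Hnf4aos has no base in common with exons of Hnf4a.

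**Figure D3:**
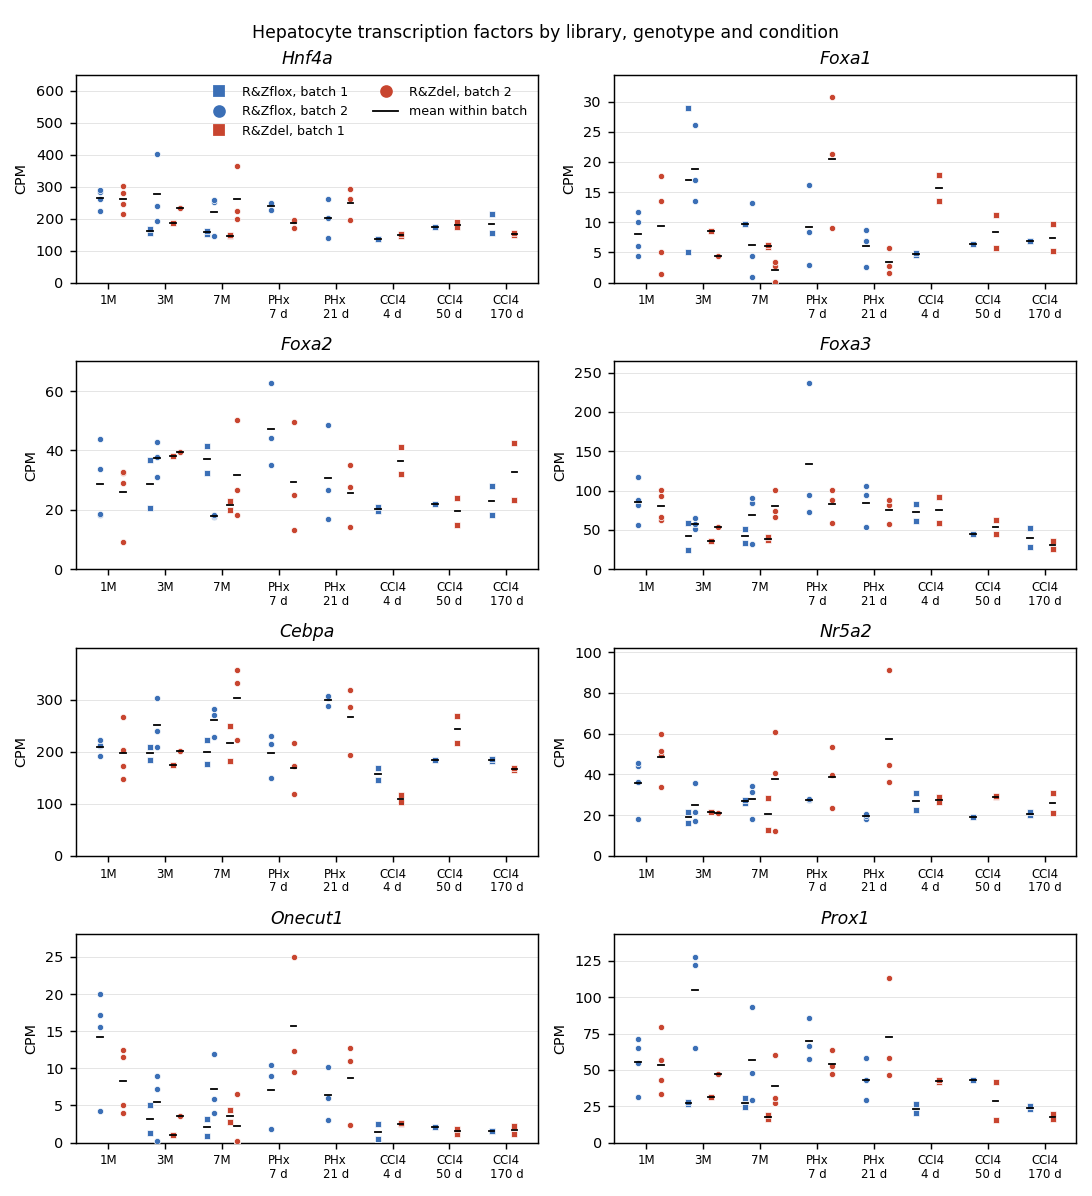
CPM of the 8 factors (1 panel each, vertical axes linear from 0) in each library by condition, R&Zflox beside R&Zdel, with the batch marked by the symbol. The genotypes overlap in 54 of 80 cases of factor, batch and condition, and among the 26 that stand apart (32.5%, beside 37.2% over all genes) are Foxa1 and Cebpa at 4 days after CCl4 and Nr5a2 at 21 days after PHx. Of all genes, 75.4% stand apart at 4 days after CCl4 and 10.6% at 21 days after PHx.

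At 4 days after CCl4 Foxa1 and Cebpa moved in opposite directions. Foxa1 had 4.59 and 4.91 CPM in R&Zflox and 17.9 and 13.6 CPM in R&Zdel livers, and rose by a log2 fold change of 1.25 ± 0.34 (edgeR adjusted p = 0.0348). Cebpa had 168.8 and 146.4 CPM in R&Zflox and 116.1 and 103.2 CPM in R&Zdel livers, and fell by 1.01 ± 0.24 on the log2 scale (edgeR adjusted p = 0.0226), to 0.497 times the control level. The genotypes did not overlap for either gene, and by CPM neither did they for 75.4% of all genes there. Of those 14054 genes, 9226 were higher and 1369 lower in R&Zdel. These were 2 of 9 genes, where 27.6% of all genes were called, so that the count itself is not above the background. The calls rest on 2 mice of each genotype. Foxa1 was not called without R&Zflox replicate 1 or 2 or R&Zdel replicate 1 (edgeR adjusted p = 0.174, 0.136 and 0.160), and Cebpa not without R&Zflox replicate 1 or R&Zdel replicate 2 (0.141 and 0.142).

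Foxa2 had 19.6 and 21.1 CPM in R&Zflox and 41.22 and 31.98 CPM in R&Zdel livers at 4 days, and Prox1 26.7 and 19.98 against 43.3 and 41.5 CPM. Neither was called under TMM (0.37 ± 0.32 and 0.37 ± 0.31, edgeR adjusted p = 0.437 and 0.426). With library size alone Foxa2 was called higher (0.87, edgeR adjusted p = 0.0803) and Prox1 stood at 0.88 (adjusted p = 0.101). On that scaling 43.8% of all genes were called, 91.3% of them higher. Hnf4a had 136.1 and 134.8 CPM in R&Zflox and 151.4 and 145.5 CPM in R&Zdel livers, higher by CPM but at −0.35 ± 0.22 once scaled (edgeR adjusted p = 0.287), and at 0.15 by library size alone. Foxa3, Nr5a2 and Onecut1 stood at −0.41 ± 0.34, −0.45 ± 0.25 and 0.29 ± 0.64. By library size alone Foxa1 stood at 1.75 and Cebpa at −0.50 (edgeR adjusted p = 0.0143 and 0.0524), so that both kept their direction and call, while the size for Cebpa was smaller than under TMM (−1.01). The same held for its interaction with damage, −0.53 by library size alone (edgeR adjusted p = 0.094, with 36.5% of all genes called).

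**Figure D4:**
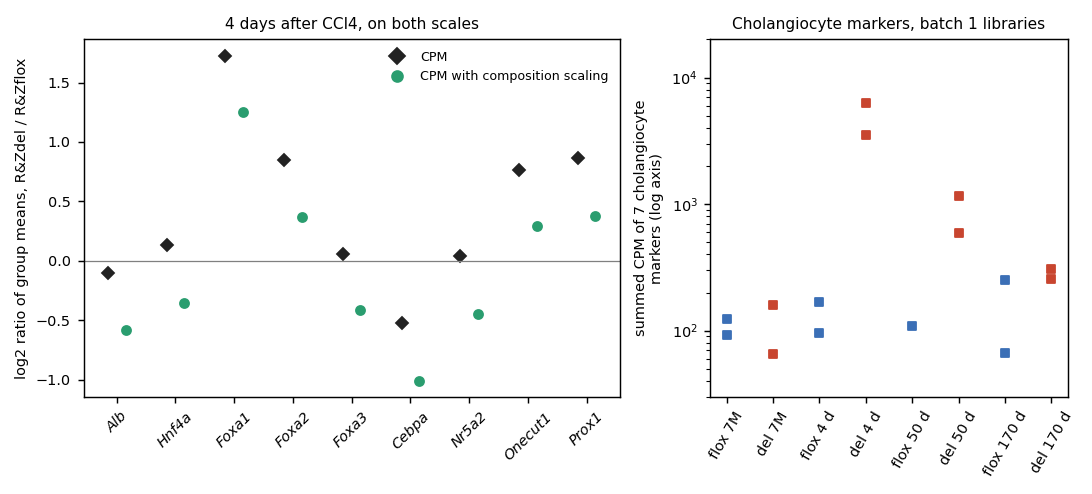
Left, log2 ratio of the group means of R&Zdel over R&Zflox livers at 4 days after CCl4 (vertical axis) for the 9 genes, by CPM (diamonds) and by CPM with composition scaling (circles); Foxa1 lies above 0 and Cebpa below 0 on both scales, while Hnf4a changes sign. Right, summed CPM of 7 cholangiocyte markers (log axis) in each batch 1 library of the undamaged 7M and CD groups (R&Zflox blue, R&Zdel red), which at 4 days is 3519 to 6271 CPM in R&Zdel and 96.0 to 166.9 CPM in R&Zflox livers.

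Against undamaged livers of batch 1, Cebpa at 4 days after CCl4 fell by 1.60 ± 0.23 on the log2 scale in R&Zdel mice (edgeR adjusted p = 0.000248), while in R&Zflox mice it stood at −0.50 ± 0.21 (adjusted p = 0.196). The difference between the genotypes was itself called (interaction −1.095 ± 0.288, edgeR adjusted p = 0.0248). Foxa1 stood at −1.57 ± 0.54 in R&Zflox mice (edgeR adjusted p = 0.119) and at 0.54 ± 0.56 in R&Zdel mice (0.454), and its interaction was called as well (2.11 ± 0.74, edgeR adjusted p = 0.0677). Hnf4a fell by 0.70 ± 0.21 in R&Zdel mice (edgeR adjusted p = 0.0161) and stood at −0.31 ± 0.19 in R&Zflox mice (0.407). Without composition scaling the value of Hnf4a in R&Zdel mice was −0.04 (edgeR adjusted p = 0.854), and without R&Zdel replicate 2 it was no longer called (0.149). Thus 2 of 9 members were called in R&Zdel mice where 52.3% of all genes were, 0 of 9 in R&Zflox mice against 8.21%, and 2 of 9 by the interaction against 25.7%. The interaction of Cebpa was lost without R&Zdel replicate 2 or R&Zflox replicate 1 (edgeR adjusted p = 0.140 and 0.110), and that of Foxa1 in 6 of 18 fits that left out 1 library. At 50 and 170 days and after PHx, 0 of the 108 tests of members against undamaged livers and by the interaction was called by edgeR, and 6 had an unadjusted p under 0.05.

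**Figure D5:**
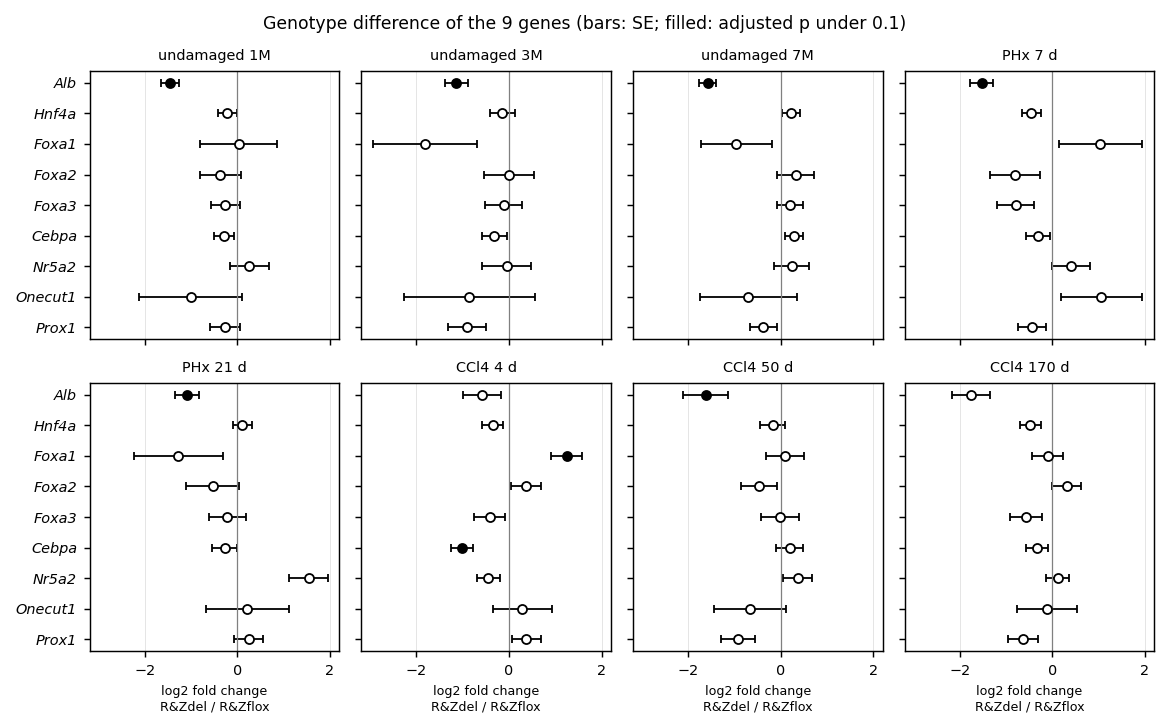
Log2 fold changes of R&Zdel over R&Zflox (horizontal axis) for the 9 members in the 8 comparisons of genotypes, with bars of 1 SE, and filled symbols for an adjusted p under 0.1. Alb is filled in 6 of 8 comparisons, all below 0, and the factors are filled for Foxa1 (1.25) and Cebpa (−1.01) at 4 days after CCl4.

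Of further factors of the hepatocyte network, calls between genotypes fell at 4 days after CCl4. A list of 26 includes the bile acid receptor Nr1h4 and the PPAR receptor Ppara. Of these, 0 was called by edgeR at 1M, 3M, 7M, CD 50 and 170 days and both times after PHx. There 0.226% to 7.6% of all genes were called, and 18 of the 182 tests of the list had an unadjusted p under 0.05. At 4 days after CCl4, 5 were called higher and 6 lower of 26, beside 27.6% of all genes. Among the largest were Gata6 (log2 fold change 1.74), Nr0b2, a repressor in bile acid metabolism (−1.69), and Nr1i3, a xenobiotic receptor (1.66). Against undamaged livers, R&Zdel mice had 5 of the 26 higher and 12 lower at 4 days (52.3% of all genes called), and 5 higher and 6 lower at 50 days (36.1%). R&Zflox mice had 1 lower at 4 days (8.21%) and 0 called at 50 days. The medians of the list lay between −0.33 (3M) and 0.11 (21 days after PHx), against −0.09 and −0.01 of all genes.

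Among the secreted products themselves, 6 of 18 were lower and 0 higher between genotypes at 4 days after CCl4 (27.6% of all genes called), led by the fibrinogen chains Fgg (−2.27), Fga (−2.05) and Fgb (−1.78) and by vitronectin, Vtn (−1.31). Elsewhere 1 was lower at 1M (Hpx) and 2 at 21 days after PHx (the vitamin D carrier Gc, −0.60, and antithrombin, Serpinc1, −0.57), and 1 was higher at 7 days after PHx (the retinol carrier Rbp4, 0.56). Of all genes, 0.352% to 0.498% were called in these comparisons. At 3M, 7M, CD 50 and 170 days 0 of 18 was called by edgeR (0.226% to 7.6% of all genes called), with an unadjusted p under 0.05 in 13 of 72 tests. Against undamaged livers, R&Zdel mice had 11 of 18 lower and 1 higher at 4 days after CCl4 (52.3% of all genes called) and 6 lower at 50 days (36.1%).

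The 9 hepatocyte markers that the study named from these samples, Alb among them, were called lower in 3 cases at 1M, 2 at 3M, 2 at 7M, 7 at CD 4 days, 5 at CD 50 days, 1 at CD 170 days and 3 at each time after PHx, and higher in 0. Since the study chose them on these samples, this count is not independent evidence of their direction. Of all genes, 27.6% were called at CD 4 days, 7.6% at CD 50 days and 0.226% to 0.643% in the other comparisons of genotypes. Histidine ammonia lyase, Hal, moved more than Alb, by a log2 fold change of −3.58 at 1M, −2.12 at 7M and −3.83 at 21 days after PHx. Arginase 1, Arg1, an enzyme of the urea cycle, stood at −1.64 at 1M.

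Called genes of other cells and states lay mostly in the CD comparisons. Of all genes, 27.6% were called there at 4 days, 7.6% at 50 days and 0.643% at 170 days. The 7 cholangiocyte markers summed to 3519 to 6271 CPM in R&Zdel and 96.0 to 166.9 CPM in R&Zflox livers at 4 days after CCl4, where 6 of 6 tested were called higher and Cftr was at 0 in both R&Zflox livers. At 50 days the sums were 587.7 to 1148 against 108.4 CPM, with 1 called, and at 170 days 255.4 to 307.5 against 66.4 to 252.6 CPM, with 0 called. Fetal and progenitor genes summed to 175.5 to 280.8 against 7.59 to 10.7 CPM at 4 days (4 of 5 tested higher), and 8 proliferation genes to 222.2 to 236.4 against 43.8 to 83.5 CPM (6 of 7 tested higher). At 50 days 1 fetal gene and 2 proliferation genes were called higher. Of the endothelial and stellate markers 2 of 10 were higher and 2 lower at 4 days, 1 was higher at 50 days, and 1 lower at 7 days after PHx (0.352% of all genes called). Of the leukocyte markers 1 of 8 was lower at 4 days (Cd5l) and of the blood cell markers 1 of 5 (Alas2, −3.02), and of the pancreas markers the 1 tested was not called. The leukocyte and blood cell counts at 4 days lay below the 27.6% of all genes, and the endothelial and stellate count near it. In undamaged livers 0 of the genes of these cell and state lists was called by edgeR, where 0.226% to 0.576% of all genes were. That count alone says nothing about these lists, and 0 to 4 tests of each list had an unadjusted p under 0.05. Their sums stood apart between genotypes in some cases, which were picked from all lists, conditions and batches and not counted. By CPM, 37.6% of single genes did so at 7M in batch 1, 9.75% at 7M in batch 2 and 5.12% at 1M. At 7M the 9 leukocyte markers summed to 122.1 to 346.1 CPM in R&Zdel and 389.3 to 583.1 CPM in R&Zflox livers of batch 1, and to 114.9 to 224.6 against 247.0 to 357.1 CPM in batch 2. Endothelial and stellate sums were lower in R&Zdel at 7M in batch 1 alone (99.03 to 214.6 against 215.4 to 347.7 CPM). Fetal sums at 1M were 9.82 to 29.69 against 5.373 to 9.298 CPM. The genes of that list were unlike each other, with log2 fold changes of 5.61 for H19, 3.27 for Prom1 and 1.22 for Sox4. Gpc3 stood at 0.20, Afp at −0.05 and Cd24a at −0.32. The part of these cells and states in the values of Alb and the factors was not tested.

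Correlations among the members across libraries were mostly low. Over 18 libraries of batch 1 and 30 of batch 2, the correlations of log2 CPM among the 36 pairs of members had a median of 0.07 and 0.05. Alb and Hnf4a gave 0.08 and 0.02, Alb and Cebpa −0.10 and −0.10, and Alb and Nr5a2 −0.245 and −0.45. The highest pair was Foxa1 with Foxa2 in batch 1 (0.72, and 0.28 in batch 2). The genes whose pattern was most like that of Alb, of 7911 compared and by the lower r of the batches, were Sfxn1 (0.84 and 0.85), Rida (0.87 and 0.81), Arg1 (0.81 and 0.78), Uroc1, an enzyme of histidine breakdown (0.90 and 0.76), and Etnppl (0.765 and 0.74). For Hnf4a the nearest were Ildr2 (0.58 and 0.60), Dleu2 (0.695 and 0.48), Nrbp2 (0.44 and 0.43), Wdfy1 (0.45 and 0.43) and Jade1 (0.46 and 0.43), all less alike than those of Alb. These libraries share the genotypes, batches and depths, and the values are descriptions.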

How the data were processed

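Whole-liver RNA was read by the authors as single 50-base Smart-Seq2 reads, trimmed (Sickle), mapped by STAR 2.5.0a to the mm10 genome and counted on exons with featureCounts (1.5.0-p3 per the file headers of batch 1, without strand). The deposited values are raw counts per gene symbol, neither normalized nor filtered. The batches were restricted to 34490 shared symbols.

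Counts were fitted with edgeR 4.0.16 (R 4.3.3, TMM, quasi-likelihood) on genes that exceeded 1 CPM in 3 or more libraries, or reached 1 CPM in 6 or more for CD: 25 undamaged libraries (group, sex and batch terms), 11 CD (group), 20 PHx and 1M (group, sex), and 18 of batch 1 (group, sex) for CD against undamaged. P-values were two-sided and adjusted by Benjamini-Hochberg over all genes, and calls had an adjusted p under 0.1. Standard errors came from the fold change and the F statistic. The lists were network factors, secreted products, fetal and progenitor genes, the study's hepatocyte markers, proliferation genes and markers of cholangiocytes, leukocytes, endothelial and stellate cells, blood and pancreas. Members and lists were chosen with earlier results of these data known. All members are named, and of each list the called genes, at most 4 by size. Some items of the lists are not reported here by name. Similar genes were ranked by the lower r of log2 CPM (prior count 3) in the batches, over genes with a mean CPM above 5. RPKM used the exon lengths of the batch 1 annotation.

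Groups came from the labels, and 5 libraries with conflicting labels entered no comparison. Labels and methods do not describe technical repeats, and the replicates were taken as separate mice. DESeq2 1.42.0, other scalings, filters, covariates and left-out libraries were tried, and the fits were tested on simulated counts.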

Additional observations from a re-analysis of the deposited data

Results flagged for a closer look

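In the groups of 4 to 10 libraries, the highest or lowest library of each gene was set against the range of its group. Of 45 such gene and group pairs 3 had a library far from the rest, where chance gives about 1 in 20.

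Foxa2 in undamaged R&Zdel livers at 1M had a lowest library of 9.10 CPM (replicate 4), with the others between 29.01 and 32.87 CPM. At 7M, Foxa2 had a highest R&Zdel library of 50.3 CPM (replicate 5, batch 2), with the others between 18.4 and 26.7 CPM. Nr5a2 in R&Zflox livers at 3M had a highest library of 35.8 CPM (replicate 5, batch 2), with the others between 16.2 and 21.7 CPM.

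The effect of early CD differed between the genotypes by the interaction term for Cebpa and Foxa1 in edgeR. It was −1.095 ± 0.288 on the log2 scale for Cebpa (adjusted p = 0.0248) and 2.11 ± 0.74 for Foxa1 (adjusted p = 0.0677), each on 2 damaged mice per genotype.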

How the results depend on the processing

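Under all settings tried, Alb had a negative log2 fold change in all 8 comparisons of genotypes. It was called in 37 of 38 settings at 1M, 38 of 39 at 7M, 29 of 30 at 7 days and 14 of 30 at 21 days after PHx, 23 of 39 at 3M, 0 of 19 at CD 4 days, 6 of 18 at CD 50 days and 4 of 19 at CD 170 days. Of 5274 values of single members under an alternative, 5073 kept their direction and side of the threshold, or moved by less than 1 SE where not called, 98 moved further, 62 lost and 41 gained a call, and 0 called values changed sign.

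By number of members called, 1M gave 1, and 0 with male mice alone. At 3M the number was 1, and 0 in batch 1 alone, batch 2 alone, the compared groups alone, male mice alone and without a batch term. At 7M it was 1, and 0 in batch 1 alone. At CD 4 days it was 2, then 3 in the compared groups alone (with Hnf4a, −0.42) and with library size alone (with Foxa2), and 0 to 2 with 1 library left out. At CD 50 days it was 1, 0 with DESeq2 size factors and with library size alone, 2 without a filter and 0 to 1 with a library left out. In its compared groups alone it was 1 as well, but Prox1 (−0.92, edgeR adjusted p = 0.0828) and not Alb (−1.62, 0.395). At CD 170 days it was 0, and 1 with DESeq2's Wald test, edgeR's likelihood ratio test, no filter or library size alone. CD against undamaged gave 2, then 4 with DESeq2's Wald test, 5 with library size alone, 8 without a filter and 1 to 4 with a library left out. The interaction with CD gave 2, then 5 with library size alone and 0 to 2 with a library left out. At 7 days after PHx it was 1, and 0 in the compared groups alone. At 21 days it was 1, then 2 with DESeq2's Wald test, the likelihood ratio test or an unadjusted p with a fold change, 0 with library size alone or male mice alone, and 0 to 1 with a library left out. At 3M leaving out a library gave 0 to 1. The cause of these moves was not tested. Library size alone was added after the data were seen. Where 1 library was left in an arm, it was assumed to vary like the other groups.

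With the replicate number as a block, 0 members were called at 3M, CD 50 days and 21 days after PHx, where Alb stood at −1.16, −1.30 and −1.11 (edgeR adjusted p = 0.159, 0.217 and 0.169), and no other call of the members changed. At 3M no same-numbered libraries of both genotypes entered the block, so that its value there cannot reflect pairing. At 7M replicate 2 joined an R&Zdel library of batch 1 to an R&Zflox library of batch 2. Deviations of same-numbered samples correlated at −0.403 to 0.435, with −0.136 to −0.111 at 1M and −0.0494 to 0.0089 after PHx. The group means pooled both batches at 7M, where replicate 1, with both libraries in batch 1, gave 0.435 and replicate 2 gave −0.266. At 1M same-numbered mice were of opposite sex. In the CD groups compared here, each a pair of mice, deviations from the group mean mirror each other. Both replicates then give the same value by construction. The correlations of the CD groups therefore cannot show whether same-numbered samples belong together. Those at 1M and after PHx were low, and whether samples were paired was not resolved.

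Library size alone moved the share of higher calls among all genes from 46.9% to 69.4% at 1M, 52.7% to 91.3% at CD 4 days, 39% to 80% at CD 50 days, 64.4% to 75.9% at CD 170 days and 42.6% to 56% at 21 days after PHx, and the genes called at CD 4 days from 3135 to 4975 and at CD 50 days from 863 to 235. Foxa1 and Onecut1, with the fewest reads of the members, mostly had the widest SEs, and the cause was not tested.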

Other observations

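Glutamine synthetase, Glul, a target of WNT signals that marks pericentral hepatocytes, rose in R&Zdel livers without damage, by a log2 fold change of 2.32 ± 0.36 at 1M (edgeR adjusted p = 0.00108) and 2.75 ± 0.34 at 7M, the same livers in which Alb was lower. At 4 days after CCl4 the antisense genes Hnf4aos and Prox1os stood at −2.18 ± 0.62 (edgeR adjusted p = 0.0399) and −1.31 ± 0.30 (adjusted p = 0.0193). Hnf4a and Prox1 themselves were not called there.

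In the 5 libraries whose labels conflict and which were put in no group, Alb had 86830, 19830, 27440, 22550 and 73650 CPM and Hnf4a 155.1, 220.7, 184.4, 192.5 and 179.0 CPM.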
